A study of Mus musculus with 42 samples.

Results

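The samples described here are laser-captured sensory neurons of the nodose ganglion (NG) and the dorsal root ganglion (DRG) of BALB/c mice, a strain kept inbred for laboratory work, on the Affymetrix Mouse430_2 array. They were chosen by their titles, which mark the third experiment of the series, and number 20 of its 42 samples: 11 NG and 9 DRG arrays. Laser capture cuts chosen cells from a tissue section under the microscope, and about 150 neurons were collected per sample. All 20 samples came from mice in ordinary housing with no other treatment, and no age is given. The study's design text names the captured cells as visceral sensory neurons, but how they were recognised in the section, and which spinal levels the DRG came from, are not stated in the labels or design text. About 12 µg of RNA per sample was labelled with biotin, which the labels call total RNA. Whether it was amplified before labelling is not stated. The labels do not say whether the samples are separate animals; the p-values therefore measure only how these samples vary, and part of that spread may be technical. The comparison asks how captured vagal neurons differ from captured spinal neurons, and it is described with weight on the genes that MG-U74Av2, the smaller array of the series' other experiments, does not carry.

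The NG holds the cell bodies of vagal afferents, which carry signals from gut, heart, airways and vessels to the brainstem. They arise from an epibranchial placode, a thickening of embryonic surface ectoderm. The DRG contains spinal afferents, which arise from the neural crest and serve skin, muscle, joints and viscera. Sensory neurons of both kinds detect stimuli with ion channels in their endings, set their firing with voltage-gated channels, and release glutamate and peptides at their central terminals.

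A Mouse430_2 array reads each transcript with a probe set of short oligonucleotides, and its value is a signal intensity on a linear scale. Every array was scaled to the same mean after trimming 2% of the values at each end. Signals below are these scaled intensities; a row of 3 values gives the lowest, the median and the highest array of a group. Differences are NG minus DRG on the scale log2(signal + 7.48), which understates differences of dim genes. A gene is called where limma's test across 28107 probe sets gave a Benjamini-Hochberg adjusted p under 0.05. A gene with several probe sets is given by its brightest (highest mean log2 signal). Signals of different genes are not set against each other, since probe sets differ in brightness.

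The deposited trimmed means ran from 84.24 to 200.5 over the 20 arrays, and neither they nor the 3 prime over 5 prime ratios of Gapdh and beta actin, which rise as RNA degrades or is copied incompletely, differed between ganglia (exact two-sided permutation p = 0.38, 0.497 and 0.39, each 0.497 after adjustment over the 3). Both ratios were high on every array, on the log2 scale 6 to 7.24 for Gapdh and 4.8 to 5.99 for beta actin. Signal of both genes thus leaned strongly to the 3 prime end in all samples. How far this lowered probe sets that lie away from that end was not tested. The first principal component took 28.4% of the variance and separated the ganglia. Pan-neuronal genes were bright in both groups, with summed signals of 28248 to 38044 in NG and 29269 to 45871 in DRG over 14 genes. The captured samples also held signal of other cells. The 13 satellite glia markers summed to 9655 to 11683 in NG and 11887 to 14418 in DRG, and 6 of them were called higher in DRG and 1 in NG. The 11 fibroblast and matrix markers summed to 3906 to 6099 and 6776 to 10868, with 4 called higher in DRG (2 after quantile normalization or with the same median), among them the matrix proteoglycan Dcn at 113, 407 and 962 in NG and 465, 1481 and 3123 in DRG. Thy1, another of the 4, is also a neuronal surface protein and held much of these sums, at 2142, 3103 and 4335 in NG and 4038, 5405 and 6135 in DRG. Without it the other 10 summed to 1345 to 2707 in NG and 2303 to 4733 in DRG, which overlap. The 13 endothelial and mural markers summed to 1285 to 2085 and 2099 to 3762, with 4 called higher in DRG, led by the pericyte gene Rgs5 at 62.9, 152 and 303 in NG and 546, 1054 and 2006 in DRG, and 2 in NG. The 12 Schwann cell markers overlapped in their sums (8158 to 10065 and 7461 to 10219.9), as did the 9 macrophage markers (708 to 1334 and 657 to 1043) and the 6 blood and muscle markers (209 to 424 and 132 to 319.8). Of the 15 macrophage markers on the array, 6 did not pass the filter on low values, Ptprc and Cd68 among them. The part of these cells in the results was not tested.

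Of 28107 probe sets tested, 6250 (22.2%) were called, 2733 (9.72%) higher in NG and 3517 (12.5%) higher in DRG. NG thus held 43.7% of the calls; it held 49.9% after quantile normalization, 63.5% when arrays were scaled to the same median and 24.4% with the values as deposited, and the median difference over all probe sets was -0.05, 0.02, 0.085 and -0.17 under these scalings. Counts of a list in 1 direction therefore move with the scaling, and they are given below under the same-median scaling where the direction holding more calls changes. With 1 probe set per gene, 1810 of 13973 genes (13%) were called higher in NG and 1906 (13.6%) higher in DRG. Both shares are the background for the count of every list below. MG-U74Av2 does not carry 7053 of the 13973 genes, and these 7053 are called uncarried or new here. Among them 775 (11.0%) were called higher in NG and 919 (13%) higher in DRG, against 1035 (15%) and 987 (14.3%) of the 6920 genes it does carry. The genes it does not carry were also dimmer, with a median signal of 86.2 against 208. At least 2-fold differences were called for 204 of the uncarried genes in NG and 398 in DRG, and at least 8-fold differences for 24 in each. The NG and DRG arrays did not overlap for 308 of the uncarried genes (4.37%; 131 higher in NG, 177 higher in DRG) and for 700 of all 13973 genes (5.01%). Of 702 called uncarried genes with more than 1 probe set tested, 290 had another probe set called in the same direction, 19 had one called in the opposite direction, and 397 had no other called.

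**Figure D1:**
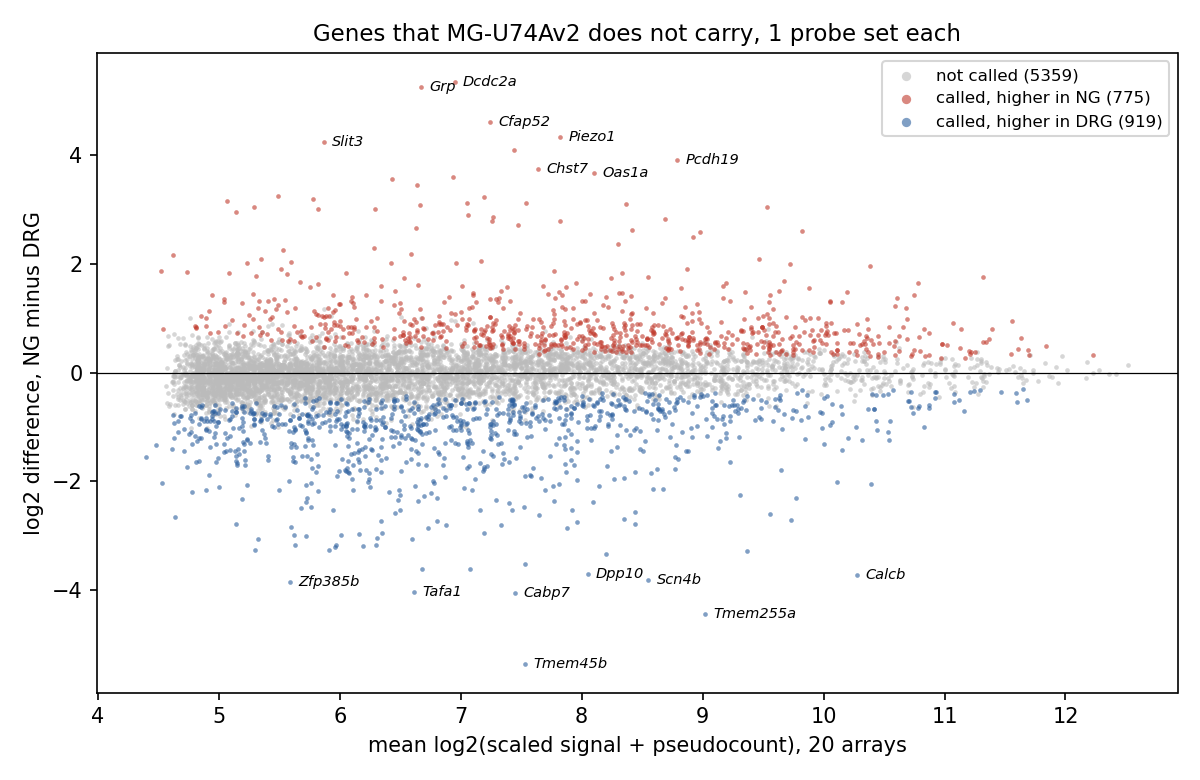
Each point is 1 of the 7053 genes that MG-U74Av2 does not carry; the x axis is the mean log2(scaled signal + 7.48) over 20 arrays and the y axis the log2 difference, NG minus DRG. The called genes (775 higher in NG in red, 919 higher in DRG in blue) spread to more than 5 log2 units on both sides, with Dcdc2a and Grp at the top and Tmem45b at the bottom.

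Among genes that MG-U74Av2 does not carry, the captured NG samples stood out by a microtubule gene, a bombesin-like peptide and a mechanically gated channel. Dcdc2a, a doublecortin-family protein that binds microtubules in primary cilia, had signals of 216, 625.0 and 1432 in NG and 1.38, 6.49 and 33.8 in DRG (log2 difference 5.35, SE 0.30, adjusted p = 2.22e-13). The DRG arrays lay near the pseudocount, so that its 40.8-fold difference depends on the pseudocount. Grp, the precursor of gastrin-releasing peptide, gave 135, 591 and 1244 in NG and 3.34, 5.08 and 18.9 in DRG (log2 difference 5.26, SE 0.29, adjusted p = 2.14e-13). Cfap52, a protein of motile cilia, was at 489.5, 644 and 910.0 in NG and 8.87, 18.7 and 31.2 in DRG (log2 difference 4.62, SE 0.16, adjusted p = 1.17e-17). Piezo1, a channel opened by membrane stretch, was at 642, 947 and 1153 in NG and 17.04, 23.7 and 93.4 in DRG (log2 difference 4.34, SE 0.24, adjusted p = 2.32e-13), 20.3-fold higher in NG. The lowest NG array thus lay far above the highest DRG array for each of these genes.

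The other leading genes of NG have varied roles. Slit3, a secreted axon guidance ligand, was at 68.5, 242 and 441 in NG and 1.89, 3.69 and 7.70 in DRG (log2 difference 4.25, SE 0.25). Pcdh19, a protocadherin, was bright in NG, at 744, 1686 and 1925 in NG and 44.5, 88.2 and 170.0 in DRG (3.92, SE 0.20), and its other tested probe sets were called in the same direction. Cntn5, a contactin of the neuronal surface, differed by 3.46 (SE 0.25), and Cdh22, a cadherin, by 3.20 (SE 0.25). Chst7 and Hs3st4 encode sulfotransferases that modify the sugar chains of proteoglycans. Chst7 was at 359, 681 and 846 in NG and 18.2, 43.7 and 81.7 in DRG (3.74, SE 0.21). Hs3st4 was at 321, 497 and 758 in NG and 29.2, 43.5 and 96.6 in DRG (3.13, SE 0.20). Oas1a, an enzyme of the interferon response, read 456, 995 and 1185 in NG and 8.91, 84.9 and 136 in DRG (3.67, SE 0.30). Also higher in NG without overlap were St18, a zinc-finger transcription factor (3.57, SE 0.26), Mab21l1, a developmental regulator (3.23, SE 0.24), Plin5, a lipid droplet protein (3.26, SE 0.27), and Htr3b, described with the ligand-gated channels.

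The leading genes higher in DRG have varied roles too. Tmem45b, a transmembrane protein found in nociceptors, had signals of 1141, 1358 and 2364 in DRG and 12.1, 21.1 and 199 in NG (log2 difference -5.36, SE 0.30, adjusted p = 3.34e-13), a 40.9-fold difference. Tmem255a was at 1482, 2755 and 4241 in DRG and 50.9, 117 and 374 in NG (log2 difference -4.44, SE 0.25, adjusted p = 3.04e-13), with its 3 other called probe sets also higher in DRG. Cabp7, a calcium-binding protein of the calmodulin family, was at 508, 824 and 1319 in DRG and 8.54, 49.0 and 119 in NG (-4.06, SE 0.34). The zinc-finger gene Zfp385b was at 123, 209.6 and 303 in DRG and 1.98, 5.09 and 24.8 in NG (-3.86, SE 0.22). Scn4b, Calcb, Dpp10, Lpar3, Prrxl1 and the 3 TAFA genes of this group are described with their families. Mctp2, a calcium-binding protein with C2 domains, differed by -3.62 (SE 0.37), Ppm1j, a protein phosphatase, by -3.62 (SE 0.27) and Nwd2, a protein with WD repeats, by -3.35 (SE 0.32). For Nwd2 the gap between the groups was narrow, with 45.9 to 518 in NG and 542 to 1823 in DRG. The 518 was on NG array 010, and the next NG array read 153. The rule behind these 15 genes per direction had 123 candidates in NG and 159 in DRG, besides 2 and 5 with clone names.

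**Figure D2:**
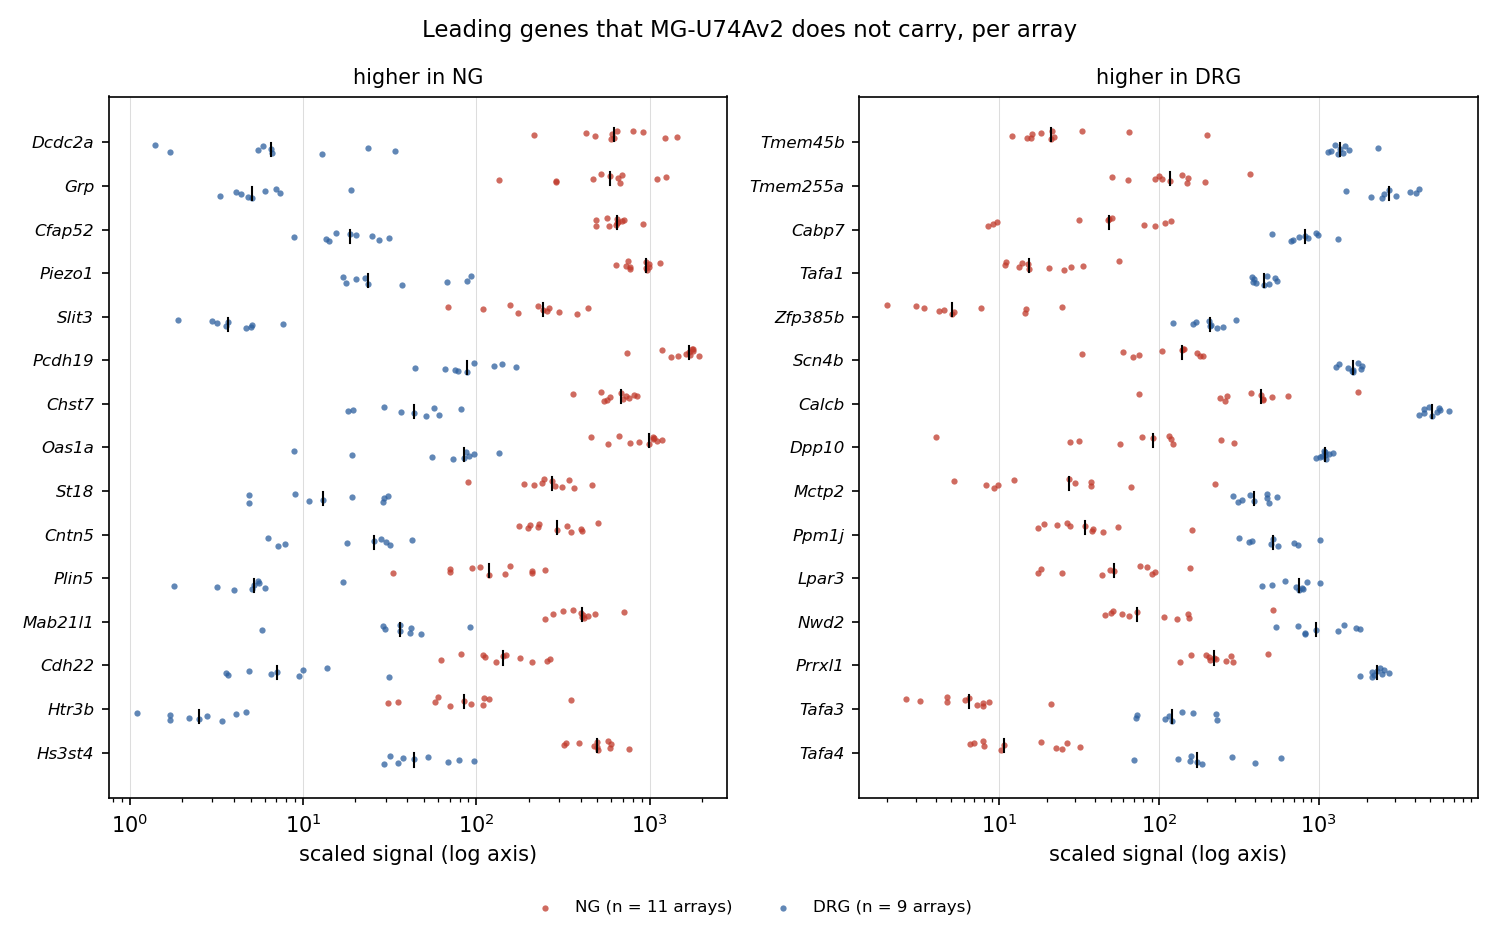
Scaled signal on a log axis for the 15 leading genes per direction that MG-U74Av2 does not carry; each point is 1 array (NG red, n = 11; DRG blue, n = 9) and black bars are medians. In every gene shown the 2 groups are separate, from Dcdc2a and Tmem45b at the top to Nwd2 and the TAFA genes lower down.

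Transcription factors that lay down neuron identity divided between the ganglia. Of 11 tested factors of placode-derived and visceral neurons, all of them also on MG-U74Av2, 6 were called higher in NG and 1 in DRG. They included the T-box factor Tbx3 (793, 972 and 1468 in NG and 41.5, 121 and 215 in DRG; log2 difference 3.32, SE 0.22), the placode gene Eya1 (2.87, SE 0.25) and Phox2a, a homeodomain factor of visceral reflex circuits (2.18, SE 0.25). Of 24 factors of spinal somatosensory neurons, 12 were called higher in DRG and 6 in NG. Prrxl1, a homeodomain factor needed for nociceptor wiring, was at 1806, 2329 and 2753 in DRG and 136, 221 and 485 in NG (log2 difference -3.28, SE 0.16, adjusted p = 1.81e-14). Pou4f1, a POU factor of somatosensory neurons, was at 1092, 1468 and 2245 in DRG and 169, 301 and 563 in NG (-2.25, SE 0.18). No NG array of either reached the lowest DRG array. Zfp521 (-2.12, SE 0.33), Prdm8 (-1.29, SE 0.19) and Bcl11b (-1.19, SE 0.20), zinc-finger regulators of neuronal differentiation, were also higher in DRG. In the opposite direction, Cux2 (1.77, SE 0.17), Tlx3 (1.18, SE 0.25) and Runx3, a Runt factor known from spinal proprioceptors (0.75, SE 0.22), were higher in NG. Runx3 was dim and overlapped, at 24.5 to 77.5 in NG and 12.2 to 50.1 in DRG. Its difference was 0.11, not called, over the arrays whose numbers recur on MG-U74Av2 and 1.36 over the others, classes described at the end. The LIM factor Isl1, shared by sensory neurons, was higher in NG by 0.48 (SE 0.13) and its relative Isl2 higher in DRG by -0.74 (SE 0.16), both with overlapping groups.

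Hox genes, which record position along the body axis, went in both directions. Of 24 tested, 5 were called higher in NG and 8 in DRG (median difference of the 24, -0.23, against -0.02 over all genes). Those higher in NG were Hoxb2, new on this array (200.3, 248.8 and 316 in NG and 68.8, 96.8 and 139 in DRG; 1.32, SE 0.14), Hoxb4 (3.15, SE 0.15), Hoxb5 (3.02, SE 0.11), Hoxb6 (2.28, SE 0.17) and Hoxc4 (1.85, SE 0.16). Those higher in DRG were Hoxa9 (345, 588 and 1316 in DRG and 1.69, 3.998 and 12.6 in NG; -5.74, SE 0.23), Hoxd1 (-3.05, SE 0.26), Hoxd9 (-2.98, SE 0.25), Hoxd8 (-2.40, SE 0.19), Hoxc8 (-1.32, SE 0.26), Hoxa10 (-1.30, SE 0.21), Hoxa5 (-1.05, SE 0.22) and Hoxb9 (-0.96, SE 0.21). The NG signal of Hoxa9 lay near the pseudocount on every array, so its difference depends on it. The other 11 were not called. Hoxb7, at 37.3, 88.8 and 146 in NG and 20.9, 65.2 and 141 in DRG, and Hoxc10, like Hoxb2 new on this array, at 22.4, 35.1 and 68.0 in NG and 30.4, 39.6 and 65.4 in DRG, overlapped widely. Medians of Hoxa2, Hoxa3, Hoxa11, Hoxa13, Hoxb3, Hoxc5, Hoxc6, Hoxd3 and Hoxd13 lay between 18.95 and 69.8 in both groups; Hoxa2 was called higher in NG after quantile normalization (0.53) and with the same median (0.51), and a dimmer probe set of Hoxb3 was called higher in NG.

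Channels for mechanical, thermal and chemical stimuli went in both directions. Of 35 tested, 7 were called higher in NG and 10 in DRG, and 23 of the 35 are not on MG-U74Av2. Beside Piezo1, the NG samples held more Stom, a membrane protein that binds acid-sensing channels (337, 441 and 631 in NG and 60.8, 99.8 and 136 in DRG; 2.20, SE 0.15), and the calcium-activated cation channel Trpm4 (0.62, SE 0.18, overlapping). Piezo2, the touch and proprioception channel, ran the other way, at 293, 744 and 1343 in DRG and 67.5, 133 and 301 in NG (log2 difference -2.38, SE 0.26, adjusted p = 9.79e-08), with 1 NG array above the lowest DRG array. Trpa1, which senses irritants, was at 1546, 2627 and 3035 in DRG and 109, 369 and 1471 in NG (log2 difference -2.71, SE 0.31, adjusted p = 1.89e-07). Trpv1, the capsaicin and heat receptor, was at 967, 1744 and 2377 in DRG and 208, 452 and 695 in NG (log2 difference -1.80, SE 0.19, adjusted p = 3.56e-08). In neither did the groups overlap. Asic3, an acid-sensing channel of muscle and visceral afferents, was at 467, 1109 and 1333 in DRG and 22.6, 152 and 327 in NG (-2.79, SE 0.31). Trpm3, a heat and steroid sensor, was at 310.1, 369.5 and 491 in DRG and 75.6, 143 and 212 in NG (-1.53, SE 0.17). Tmc5 (-1.64, SE 0.24) was also higher in DRG, while Tmem120a (0.73, SE 0.16) and Pkd2l1 (0.58, SE 0.17) were modestly higher in NG. Tmem150c and Tmc7 were not called; Tmem150c read 358, 450.3 and 544 in NG and 330.3, 474 and 687 in DRG.

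Receptors that are themselves ion channels went in both directions. Of 39 tested, 11 were called higher in NG and 13 in DRG, and 11 in each with the same median. Htr3b, the second subunit of the serotonin-gated channel, read 30.9, 85.3 and 350.3 in NG and 1.10, 2.52 and 4.68 in DRG (log2 difference 3.16, SE 0.28, adjusted p = 2.01e-09), beside its partner Htr3a, carried by both arrays, at 3642, 4414 and 6311 in NG and 176, 405 and 1053 in DRG (3.44, SE 0.23). P2rx2, an ATP-gated subunit, was at 241, 324 and 386 in NG and 8.05, 41.8 and 72.9 in DRG (log2 difference 2.91, SE 0.21, adjusted p = 2.71e-11), whereas its partner P2rx3 was bright in both ganglia, at 3022, 4196 and 5006 in NG and 1545, 2067 and 2715 in DRG, and 1.93-fold higher in NG (0.95, SE 0.11). Nicotinic subunits encoded in a shared gene cluster were each higher in NG: Chrna5 was at 48.0, 96.9 and 140.1 in NG and 1.75, 3.73 and 18.3 in DRG (3.04, SE 0.22), Chrna3 differed by 1.51 (SE 0.18) and Chrnb4 by 1.31 (SE 0.22). P2rx5, a further ATP-gated subunit, was at 123, 190.2 and 238 in DRG and 6.69, 109 and 175 in NG and higher in DRG (-0.93, SE 0.31; not called without the DRG array 010, -0.89, or 014, -0.91, or with the same median, -0.79). A further nicotinic subunit, Chrna7, was higher in DRG, at 332, 509 and 564 in DRG and 4.36, 68.7 and 126 in NG (-2.87, SE 0.30). The kainate receptor subunit Grik1 was at 565, 801 and 1562 in DRG and 5.90, 52.8 and 252 in NG (-3.97, SE 0.37), and the GABA receptor subunit Gabra2 differed by -2.26 (SE 0.26). Of subunits new on this array, Grin3a was higher in DRG with overlapping groups (-0.99, SE 0.22), and Grik4 (90.7, 134 and 199 in NG and 86.7, 118 and 229.6 in DRG) and Grin3b were not called.

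Voltage-gated sodium and calcium channel subunits were called for 6 genes in NG and 12 in DRG of 32 tested. The sodium channel beta subunits, accessory proteins that tune gating, went in both directions. Scn4b was 14.1-fold higher in DRG, at 1277, 1637 and 1861 in DRG and 33.0, 139.6 and 188 in NG (log2 difference -3.82, SE 0.23, adjusted p = 9.06e-13). Scn3b was 2.58-fold higher in NG, at 1541, 2475 and 3005 in NG and 748, 908 and 1155 in DRG (log2 difference 1.37, SE 0.11, adjusted p = 4.85e-10), and Scn2b less so (0.70, SE 0.15). Among pore subunits, Scn11a, the persistent sodium channel of nociceptors, was at 1909, 2305 and 2955 in DRG and 1274, 1522 and 2189.9 in NG (-0.60, SE 0.10), bright in both ganglia, and Scn1a, of larger myelinated neurons, differed by -2.18 (SE 0.33). Calcium channel accessory subunits divided likewise: Cacnb4 was at 878, 1122 and 1474 in DRG and 247, 311 and 764 in NG (-1.64, SE 0.17) and Cacng5 differed by -1.03 (SE 0.16), while Cacna2d3 was at 333, 571 and 808 in NG and 151, 249.4 and 330.3 in DRG (1.14, SE 0.16). Cacna2d2, an accessory subunit that binds gabapentin, was not called by its brightest probe set (1436, 2404 and 4154 in NG and 1574, 1878 and 3406 in DRG), although another of its probe sets was called higher in DRG.

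Potassium channels leaned to DRG, with 25 of 55 tested called higher there and 8 higher in NG (median difference -0.48). Kcnv1 and Kcnf1 encode silent subunits that modify other potassium channels. Kcnv1 read 209, 263 and 326 in DRG and 5.36, 12.4 and 67.1 in NG (log2 difference -3.17, SE 0.34, adjusted p = 4.52e-08). Kcnf1 was at 52.8, 85.3 and 150.0 in DRG and 2.66, 8.70 and 28.2 in NG (-2.33, SE 0.25). Kcns3, a further modifier (-2.19, SE 0.24), and Kcnq5, an M-current subunit (239, 273 and 549.6 in DRG and 10.3, 55.9 and 100.4 in NG; -2.80, SE 0.30), did not overlap between the groups either. Some accessory proteins of the fast A-type current were also DRG-higher: Dpp10 was at 959.8, 1095 and 1223 in DRG and 4.01, 91.6 and 294 in NG (log2 difference -3.72, SE 0.39, adjusted p = 3.56e-08). Kcnip3 was at 34.3, 219.7 and 433 in DRG and 6.85, 11.9 and 17.9 in NG (-2.99, SE 0.35). Its relative Kcnip2 was not called, at 222, 358 and 837 in NG and 218, 422 and 649 in DRG. The NG samples held more Kcnh8, a channel of the EAG family, at 133, 415 and 662 in NG and 29.9, 45.5 and 69.6 in DRG (log2 difference 2.80, SE 0.23, adjusted p = 4.85e-10), and more of its relative Kcnh2 (1.40, SE 0.17). Kcnq3, the other M-current partner, was higher in NG by 1.09 (SE 0.26), opposite to Kcnq5. Satellite glia, whose markers were partly higher in DRG, express Kcnj10; it was not called, at 122, 237 and 328 in NG and 208, 318 and 599.9 in DRG, but was called higher in DRG without the DRG array 010 (-0.55), the DRG array 014 (-0.54) or the NG array 010 (-0.53).

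**Figure D3:**
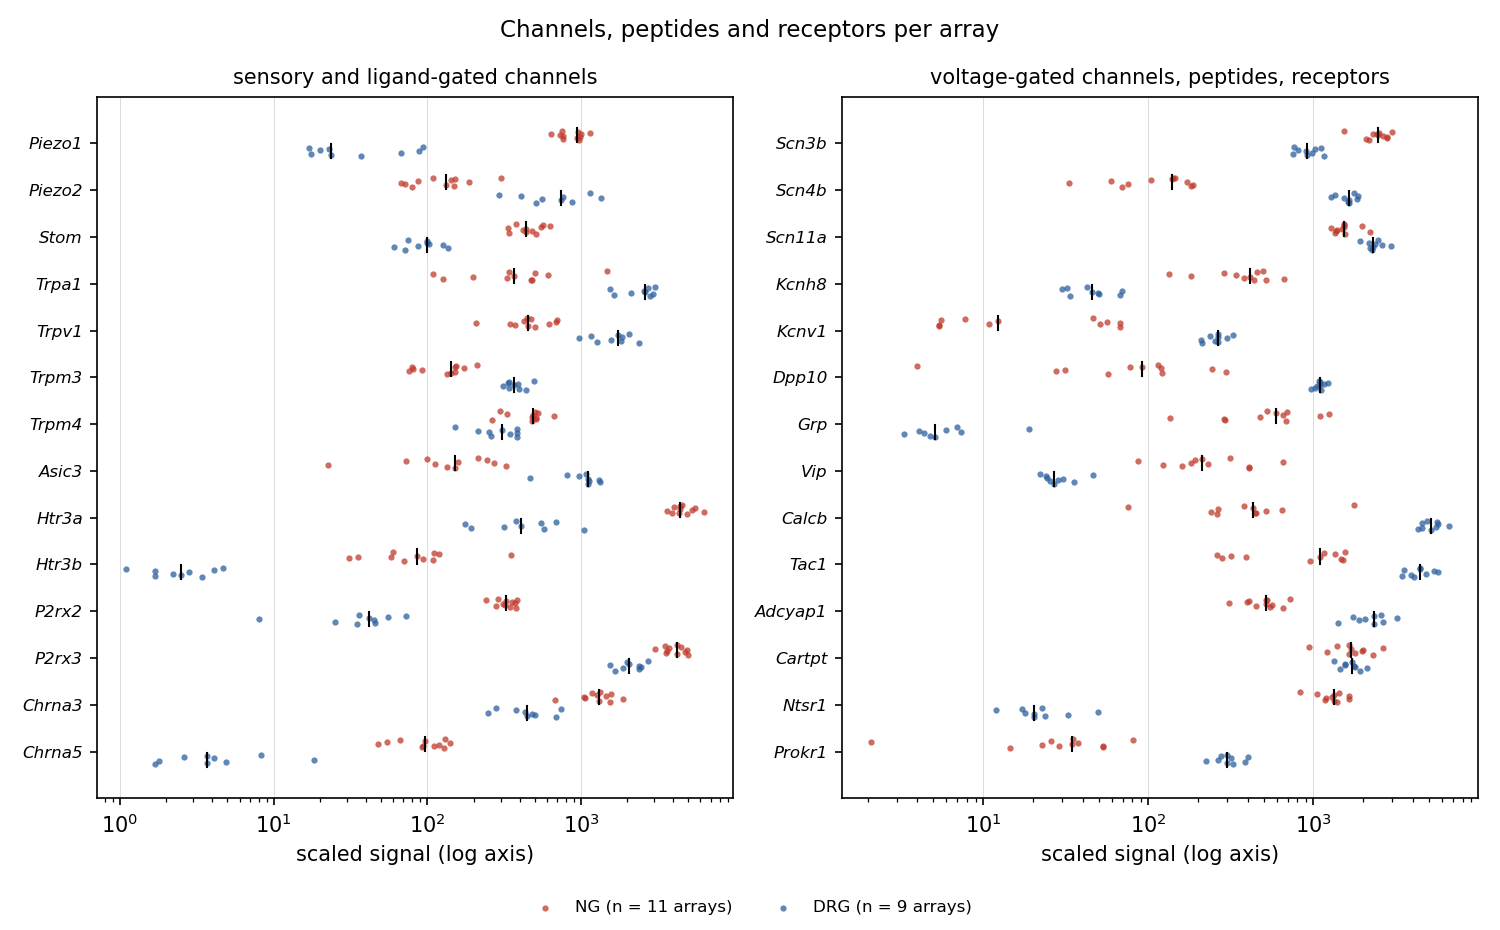
Scaled signal on a log axis for channels, peptides and receptors named in the text; each point is 1 array (NG red, n = 11; DRG blue, n = 9) and black bars are medians. Piezo1 and Piezo2 run in opposite directions, as do Scn3b and Scn4b, while Cartpt overlaps fully.

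Peptide precursors encode modulators that sensory neurons release beside glutamate. Of 31 tested, 5 were called higher in NG and 13 in DRG (median difference -0.38). After Grp, the NG-higher ones were the endothelins Edn3 (133, 378 and 561 in NG and 12.0, 14.7 and 30.7 in DRG; 3.61, SE 0.24) and Edn1 (3.17, SE 0.35), Vip, the precursor of vasoactive intestinal peptide (86.2, 211 and 652 in NG and 22.2, 26.8 and 46.4 in DRG; 2.72, SE 0.26), and Nrtn, the precursor of the growth factor neurturin (2.11, SE 0.17). Calcb, the second precursor of calcitonin gene-related peptide, a vasodilator of nociceptors, was at 4274, 5111 and 6577 in DRG and 75.5, 433 and 1760.4 in NG (log2 difference -3.73, SE 0.31, adjusted p = 6.19e-10). Tac1, the precursor of substance P, was at 3431, 4393 and 5672 in DRG and 262, 1089.8 and 1548 in NG (log2 difference -2.49, SE 0.31, adjusted p = 5.87e-07). Adcyap1, the precursor of PACAP, was at 1400.0, 2320.2 and 3211 in DRG and 307, 516 and 723 in NG (-2.12, SE 0.15). The highest NG array of each lay below the lowest DRG array.

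The TAFA family of secreted, chemokine-like proteins, new on this array, was higher in DRG for 4 of the 5 members tested. Tafa1 read 381, 457 and 550.1 in DRG and 10.9, 15.3 and 56.1 in NG (log2 difference -4.05, SE 0.20, adjusted p = 1.81e-14), Tafa3 71.9, 121 and 231 in DRG and 2.62, 6.54 and 21.1 in NG (-3.26, SE 0.22) and Tafa4, known from touch-sensitive C fibres, 70.3, 174 and 582 in DRG and 6.62, 10.8 and 31.9 in NG (-3.26, SE 0.29). Tafa2 differed by -1.83 (SE 0.29), and Tafa5 was at 254, 332 and 570.0 in NG and 203, 287 and 349.8 in DRG. Nmb (-1.85, SE 0.15), Gal (-1.68, SE 0.16), Nppb, a peptide of itch neurons (-1.06, SE 0.17), Chgb (-0.72, SE 0.15), Scg2 (-0.71, SE 0.16; not called with the same median, -0.55) and Apln (-0.68, SE 0.18) were also higher in DRG. Not called were Cartpt, which was bright in both ganglia at 935, 1697 and 2618 in NG and 1326, 1721 and 2123 in DRG, Chga (1354, 1671 and 1837 in NG and 1011, 1373 and 2449 in DRG), Vgf (189, 335 and 503 in NG and 286, 461 and 641 in DRG), Bdnf (39.8, 271 and 377 in NG and 80.8, 165 and 246 in DRG), Npy, Sst, Penk, Pomc, Adm, Pyy, Spx and Hcrt. Of these last 8 the medians lay between 22.4 and 55.9 in both groups.

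The 250 bases before the annotated start of 3 precursors (RefSeq, GRCm38.p6, forward strand) are shown because their genes moved in both directions. They are Vip (chr10:5638968-5639217), higher in NG, and Adcyap1 (chr17:93198918-93199167, the later of its listed starts) and Tac1 (chr6:7554811-7555060), higher in DRG. Capitals mark TGACGT, the core of a cAMP response element, and TAATTA, a core bound by many homeodomain proteins, searched on both strands.
Vip: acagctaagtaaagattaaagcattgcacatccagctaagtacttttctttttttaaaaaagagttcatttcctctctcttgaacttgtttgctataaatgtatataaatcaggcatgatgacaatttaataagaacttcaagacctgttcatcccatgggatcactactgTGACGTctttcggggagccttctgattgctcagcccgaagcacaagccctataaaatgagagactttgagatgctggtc
Adcyap1: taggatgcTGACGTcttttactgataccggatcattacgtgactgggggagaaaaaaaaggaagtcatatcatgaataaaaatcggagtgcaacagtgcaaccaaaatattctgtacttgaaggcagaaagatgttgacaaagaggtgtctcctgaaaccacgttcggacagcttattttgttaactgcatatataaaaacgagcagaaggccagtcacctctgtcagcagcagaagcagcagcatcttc
Tac1: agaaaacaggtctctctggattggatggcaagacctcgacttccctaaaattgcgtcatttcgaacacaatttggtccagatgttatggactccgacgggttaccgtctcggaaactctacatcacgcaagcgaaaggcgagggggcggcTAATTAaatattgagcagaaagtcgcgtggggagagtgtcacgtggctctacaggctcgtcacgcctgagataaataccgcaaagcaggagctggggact
TGACGT stood before Vip and Adcyap1, whose signals differed in opposite directions, and TAATTA before Tac1. Of the 31 precursors 27 matched a promoter entry by Entrez identifier, and 8 of these held TGACGT, 2 held TAATTA. Among all 32851 entries 6.47% held TGACGT and 4.84% TAATTA. Over the genes tested with an entry, TGACGT stood before 9.67% of 1479 NG-higher genes, 10.8% of 1514 DRG-higher genes and 10.6% of all 11179, and TAATTA before 2.57%, 3.57% and 3.28%.

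Receptors for hormones and peptides were called for 9 genes in NG and 12 in DRG of 45 tested, and for 10 and 8 when arrays were scaled to the same median. Ntsr1, a neurotensin receptor on both array types, had the largest difference of the list, at 829.9, 1331 and 1651 in NG and 12.0, 20.4 and 49.9 in DRG (log2 difference 5.42, SE 0.17, adjusted p = 1.67e-18). Cckar, the gut receptor for cholecystokinin, was at 537, 1023 and 1801 in NG and 147, 299 and 395 in DRG (1.99, SE 0.20). New on this array were Sctr, the secretin receptor (44.8, 83.0 and 120.0 in NG and 14.5, 32.3 and 47.6 in DRG; 1.03, SE 0.21), Oxtr, the oxytocin receptor (0.65, SE 0.21; not called without the DRG array 015, 0.52), and Npr2, a natriuretic peptide receptor (0.43, SE 0.13), each higher in NG with overlapping groups. The prokineticin receptors were higher in DRG: Prokr1 was at 223, 299 and 399 in DRG and 2.10, 34.6 and 80.8 in NG (log2 difference -3.06, SE 0.27, adjusted p = 1.52e-09). Prokr2 was at 53.9, 176 and 693 in DRG and 10.01, 26.4 and 143 in NG (-2.73, SE 0.40). Hcrtr1, an orexin receptor, differed by -1.65 (SE 0.38). Mchr1, the receptor for melanin-concentrating hormone, was not called by its brightest probe set, at 46.5, 77.0 and 181 in NG and 67.5, 114 and 191 in DRG, while another of its probe sets was called higher in DRG; the brightest was called too without the NG array 005 (-0.58).

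Among 84 other G protein-coupled receptors, 10 were called higher in NG and 28 in DRG. Lpar3, a receptor for lysophosphatidic acid, read 441, 749 and 1021 in DRG and 17.5, 52.4 and 157 in NG (log2 difference -3.53, SE 0.28, adjusted p = 2.49e-10). Mrgpra3, the chloroquine receptor of itch neurons, was at 142, 344 and 550.1 in DRG and 6.36, 45.3 and 64.3 in NG (-2.86, SE 0.29). The adhesion receptor Adgrg2 was at 187, 228 and 346 in DRG and 2.81, 27.9 and 142 in NG (-2.95, SE 0.47). Grm7, a presynaptic glutamate receptor, differed by -2.62 (SE 0.23), while its relative Grm3 was higher in NG by 1.33 (SE 0.36). Casr, the calcium-sensing receptor, was higher in DRG (-1.36, SE 0.24). In NG the proton-sensing receptor Gpr65, on both array types, was at 236, 326 and 598 in NG and 10.8, 12.6 and 25.0 in DRG (3.92, SE 0.18). Newly measured receptors higher in NG were the orphan Gpr149 (83.9, 227 and 385 in NG and 45.6, 80.1 and 117 in DRG; 1.30, SE 0.25), the Wnt receptor Fzd5 (0.93, SE 0.18) and Mrgpre (180.2, 204 and 319 in NG and 86.8, 128 and 153 in DRG; 0.81, SE 0.14), a member of the Mrg family that ran opposite to Mrgpra3. Gpr35 (238, 529 and 649 in NG and 396, 583 and 915 in DRG) and Gpr61 were not called.

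Genes used as markers of afferent subtypes were mostly called higher in the ganglion they are used to mark. Of 13 vagal markers tested, 9 were called higher in NG and 3 in DRG, and of 26 spinal markers 23 were called higher in DRG and 1 in NG. The vagal exceptions were Piezo2, the potassium channel modifier Kcng1 (-1.44, SE 0.23) and Npy2r (-1.31, SE 0.42; not called without the DRG array 003, 006, 008 or 014, -1.18 to -1.16, or with the same median, -1.17); Piezo2 and Npy2r also mark spinal afferents, and the spinal exception was Runx3. Npy2r differed by -2.22 over the arrays whose numbers recur on MG-U74Av2 and by -0.18, not called, over the others. Il31ra, an itch cytokine receptor, was at 36.4, 105 and 233 in DRG and 4.94, 14.3 and 31.7 in NG (-2.17, SE 0.26). Plxnc1, a semaphorin receptor of nociceptors, was at 1525, 1648 and 2175 in DRG and 396, 639.6 and 951 in NG (-1.32, SE 0.14). Th and Calb1 were not called, with Th at 264, 430.5 and 767 in NG and 359, 540.5 and 759.6 in DRG. These lists share genes with the families above and are not separate evidence. They were also chosen with earlier results of these data known, so their direction cannot test the ganglion labels.

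**Figure D4:**
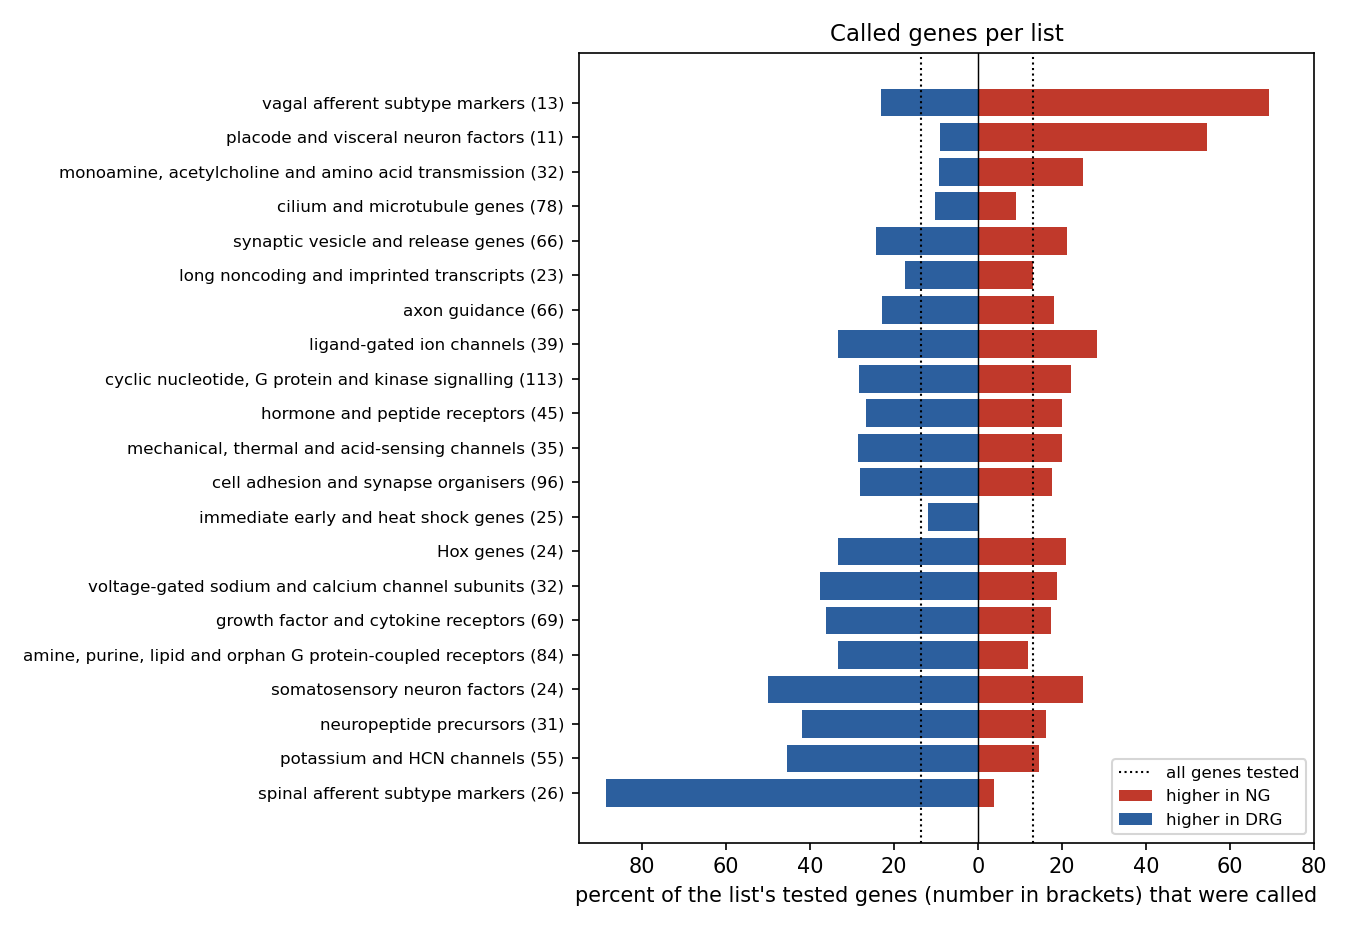
Bars give the percent of each list's tested genes (number in brackets) called higher in NG (red, right) or higher in DRG (blue, left); dotted lines mark the share over all genes, 13% and 13.6%. Among the lists shown, spinal subtype markers reach farthest to the left and vagal subtype markers farthest to the right.

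Receptors for growth factors and cytokines, mostly carried by both arrays, were called for 12 genes in NG and 25 in DRG of 69. Of those new here, Sort1, a co-receptor for neurotrophin precursors, was at 590.5, 674 and 1079.5 in NG and 194, 232 and 358 in DRG (log2 difference 1.56, SE 0.14, adjusted p = 1.44e-09). Ngfr, the low-affinity neurotrophin receptor, was at 1677, 2328 and 3116 in NG and 914, 1172 and 2004 in DRG (0.80, SE 0.14). Ltk, a receptor tyrosine kinase of both arrays, had the largest difference, at 1031, 1409 and 1541 in NG and 2.12, 11.5 and 34.0 in DRG (6.08, SE 0.21), and its relative Alk was also higher in NG (3.03, SE 0.26). In DRG the artemin receptor subunit Gfra3 (1108, 1651 and 1982 in DRG and 68.1, 149.9 and 367 in NG; -3.30, SE 0.24), the neurotrophin receptor Ntrk3 (488, 985 and 1321 in DRG and 36.2, 129 and 209.8 in NG; -2.96, SE 0.27), the Wnt receptor Ror2 (-3.82, SE 0.18) and Kit (-2.83, SE 0.27) were higher. Kdr, a vascular receptor that is also an endothelial marker, was higher in NG (229, 519.6 and 754 in NG and 30.4, 72.8 and 175 in DRG; 2.44, SE 0.26), as was Flt1 (1.38, SE 0.33), opposite to the pericyte markers Rgs5 and Pdgfrb (-1.56, SE 0.15). In captured bulk samples fewer cells of a type and less RNA per cell cannot be told apart.

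Guidance and adhesion genes were called in both directions, and most of those tested in each list were not called. Of 66 guidance genes, 12 were called higher in NG and 15 in DRG (14 and 13 with the same median). The SLIT ligands, which repel growing axons, went apart: Slit3 and Slit2 (0.81, SE 0.26; not called without the DRG array 015, 0.65) were higher in NG, and Slit1 was higher in DRG at 603, 736 and 975 in DRG and 114, 179 and 389 in NG (log2 difference -1.86, SE 0.18, adjusted p = 7.32e-09). Of the UNC5 receptors for netrin, those called were higher in NG, with Unc5c at 867, 1086 and 1213 in NG and 148, 206 and 389.7 in DRG (2.19, SE 0.14), Unc5d at 69.2, 264 and 342 in NG and 44.4, 79.0 and 172 in DRG (1.36, SE 0.26) and Unc5b (1.20, SE 0.22). The plexin Plxna2 (-2.16, SE 0.16) and the Eph receptors Ephb1 (-0.82, SE 0.22) and Epha4 (-1.94, SE 0.27) were higher in DRG. Of 96 adhesion genes and synapse organisers, 64 of them new here, 17 were called higher in NG and 27 in DRG (22 and 23 with the same median). Negr1 and Lsamp, related surface proteins of the IgLON family, ran in opposite directions: Negr1 was at 605, 973 and 1639.9 in NG and 56.9, 124 and 251 in DRG (log2 difference 2.82, SE 0.23, adjusted p = 2.72e-10). Lsamp was at 213, 379 and 527 in DRG and 21.1, 78.7 and 95.2 in NG (log2 difference -2.35, SE 0.20, adjusted p = 1.09e-09). C1ql3, a secreted synaptic organiser, was at 46.4, 231 and 304 in NG and 4.69, 16.9 and 28.4 in DRG (3.01, SE 0.27). Pcdh9 (-2.14, SE 0.32), Lrrtm3 (-1.97, SE 0.30) and Igsf21 (-1.82, SE 0.26) were higher in DRG with overlapping groups. Cntnap2, of the juxtaparanode of myelinated axons, was bright and not called by its brightest probe set (1954, 2246 and 3485 in NG and 1734, 2312 and 3797 in DRG), while another was called higher in NG.

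Cilium and microtubule genes held Dcdc2a, which had the largest difference toward NG among the leading genes new here. Of 78 tested, 57 of them new here, 7 were called higher in NG and 8 in DRG, below the share over all genes, and 9 and 2 with the same median. After Dcdc2a and Cfap52, the NG-higher members differed by under 1 log2 unit, such as Ift172 (323, 502 and 718 in NG and 170.5, 280.0 and 449.8 in DRG; 0.86, SE 0.17) and Cfap69 (0.75, SE 0.17). Ift122, a component of intraflagellar transport, was higher in DRG without overlap, at 1486, 2007 and 2328 in DRG and 723, 1050.2 and 1443 in NG (-0.89, SE 0.13), though its probe set without a shared-sequence suffix was not called (-0.63). Its partner Ift140 was not called, at 554, 836 and 1239 in NG and 562, 755 and 1179 in DRG.

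Genes of transmitter metabolism leaned to NG, with 8 of 32 called higher there and 3 in DRG. Ddc, the decarboxylase of dopamine and serotonin synthesis, was at 782, 1075 and 2502 in NG and 30.8, 54.2 and 92.4 in DRG (4.26, SE 0.20). Maob and Maoa, which degrade monoamines, were both higher in NG: Maob, new here, was at 114, 277 and 509 in NG and 17.8, 74.1 and 119 in DRG (log2 difference 2.05, SE 0.27, adjusted p = 2.14e-06), while Maoa differed by 0.99 (SE 0.14). Slc18a2, the vesicular monoamine transporter, was dim and 1.67-fold higher in NG (0.74, SE 0.24). Tph2, an enzyme of serotonin synthesis, ran the other way at low signal, 16.8, 30.9 and 42.5 in DRG and 1.32, 3.68 and 21.5 in NG (-1.55, SE 0.24). Slc17a6, which loads glutamate into vesicles, was bright in both and not called, at 1230.1, 2284 and 3308 in NG and 837, 2009.6 and 3486 in DRG; its difference was 0.96 over the arrays whose numbers recur on MG-U74Av2 and -0.52 over the others (interaction adjusted p = 0.0112), classes described at the end.

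Of 66 synaptic vesicle and release genes, 14 were called higher in NG and 16 in DRG (16 and 12 with the same median), and related genes divided. Sv2b, a vesicle glycoprotein, was at 468, 706 and 1053 in DRG and 54.6, 94.7 and 177 in NG (log2 difference -2.76, SE 0.20, adjusted p = 2.61e-11), whereas its relatives Sv2c (1.35, SE 0.27) and Sv2a (0.74, SE 0.16) were higher in NG. Syn3, a synapsin, was at 184, 372 and 485 in NG and 48.2, 108 and 172 in DRG (1.60, SE 0.20), and the synaptotagmins Syt17 (488, 771 and 1038 in NG and 41.0, 60.3 and 100.2 in DRG; 3.32, SE 0.18) and Syt13 (1.28, SE 0.25) were also NG-higher. Sytl2, which tethers granules with RAB27 proteins, was at 1545, 2019 and 2511 in DRG and 184, 323 and 743 in NG (log2 difference -2.60, SE 0.18, adjusted p = 2.79e-11), Rab27b differed by -1.84 (SE 0.30) and Rph3a by -1.77 (SE 0.20), all higher in DRG. Rab3c was higher in DRG (-1.10, SE 0.15) and Rab3b higher in NG (1.15, SE 0.27). Erc2 and Syngr3 were not called, with Syngr3 at 510.3, 659.9 and 1043 in NG and 427, 658 and 813 in DRG.

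Signalling enzymes were called for 25 genes in NG and 32 in DRG of 113, and for 29 and 23 with the same median. Phospholipase C enzymes generate calcium signals, and several were higher in NG: Plce1 was at 767, 1105 and 1520.0 in NG and 25.6, 220.3 and 381 in DRG (log2 difference 2.58, SE 0.30, adjusted p = 2.52e-07), Plcb4 at 975, 1278 and 1509 in NG and 492, 560.0 and 828 in DRG (1.02, SE 0.11), Plch1 differed by 1.31 (SE 0.18) and Plcd3 by 0.84 (SE 0.20). Several enzymes of cyclic nucleotide turnover were higher in DRG, among them the adenylyl cyclase Adcy1 (312, 484 and 604 in DRG and 15.5, 57.1 and 153 in NG; log2 difference -2.81, SE 0.23, adjusted p = 5.26e-10). The phosphodiesterases Pde3b (-2.32, SE 0.23), Pde10a (-2.10, SE 0.24) and Pde8b (-1.73, SE 0.19) were also higher in DRG. Dgkh, a diacylglycerol kinase, was at 2019, 2405 and 2990.2 in DRG and 408, 618 and 996 in NG (-2.02, SE 0.15). The calmodulin kinase Camk2g was at 2203, 2905 and 3914 in DRG and 363, 759 and 1025 in NG (-2.06, SE 0.16). These members were picked by the size of their difference within the list, so they do not speak for other members of their families, of which some went the other way. Prkg1, a kinase activated by cyclic GMP, was bright in both and not called, at 2125, 2739 and 3769.9 in NG and 1702, 2417 and 3005 in DRG.

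Of 23 long noncoding and imprinted transcripts, 3 were called higher in NG and 4 in DRG (4 and 3 with the same median), shares near those of all genes. Mest was at 440.1, 567 and 756 in NG and 165, 261 and 326 in DRG (1.17, SE 0.13) and Meg3 was 1.41-fold higher in NG (0.49, SE 0.14). Meg3 differed by 0.70 over the arrays whose numbers recur on MG-U74Av2 and by 0.27, not called, over the others. Other probe sets of Meg3 were called in the interaction with these classes (1.75 and 1.33). Miat (1015, 1225 and 1483 in DRG and 363, 658 and 1227 in NG; -0.87, SE 0.18) and Rian (-0.75, SE 0.18), both new on this array, were higher in DRG; Rian and Meg3, of the same imprinted region, thus differed in direction. Of 25 immediate early and heat shock genes, which respond to injury and handling of tissue, 3 were called, no larger a share than the 13.6% of all genes, each higher in DRG: Jun (885, 1057 and 1310.2 in DRG and 199.8, 315 and 387 in NG; log2 difference -1.79, SE 0.12, adjusted p = 2.01e-11), Hspa1b (-1.33, SE 0.26) and Btg2 (-0.66, SE 0.14). Ier5 and Nr4a3, the members new here, were not called.

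The sample numbers in the titles divide the arrays. The numbers of 5 NG and 5 DRG arrays also occur on MG-U74Av2, and the other 6 NG and 4 DRG numbers do not. Over 6851 genes on both array types, each of the 10 recurring arrays matched the MG-U74Av2 array of its own number best, with correlations of deviations from the group mean of 0.16 to 0.40. The ganglion difference itself varied between these classes of number: the interaction was called for 682 of 28107 probe sets (2.43%), for 185 with the Gapdh ratio as a covariate and for 187 with the same median. Without the DRG array 002, 005, 008 or 010 or the NG array 010 or 014 it was called for 346 to 440. Gapdh ratios (log2, lowest to highest) were 6.39 to 7.21 in the recurring NG arrays and 6 to 6.39 in the other NG arrays, 6.29 to 6.71 in the recurring DRG arrays and 6.08 to 7.24 in the others; their part in the interaction was not tested beyond that fit. Of the 1694 called uncarried genes, 1683 had the same sign in both classes, 563 were called within both, 389 within the recurring numbers alone, 373 within the others alone and 369 within neither. Piezo1, Grp, Dcdc2a, Tmem45b, Calcb and Prrxl1 were called within both classes. Each class holds fewer arrays than the whole, and a gene called in 1 class alone is not shown to differ between them without the interaction.

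**Figure D5:**
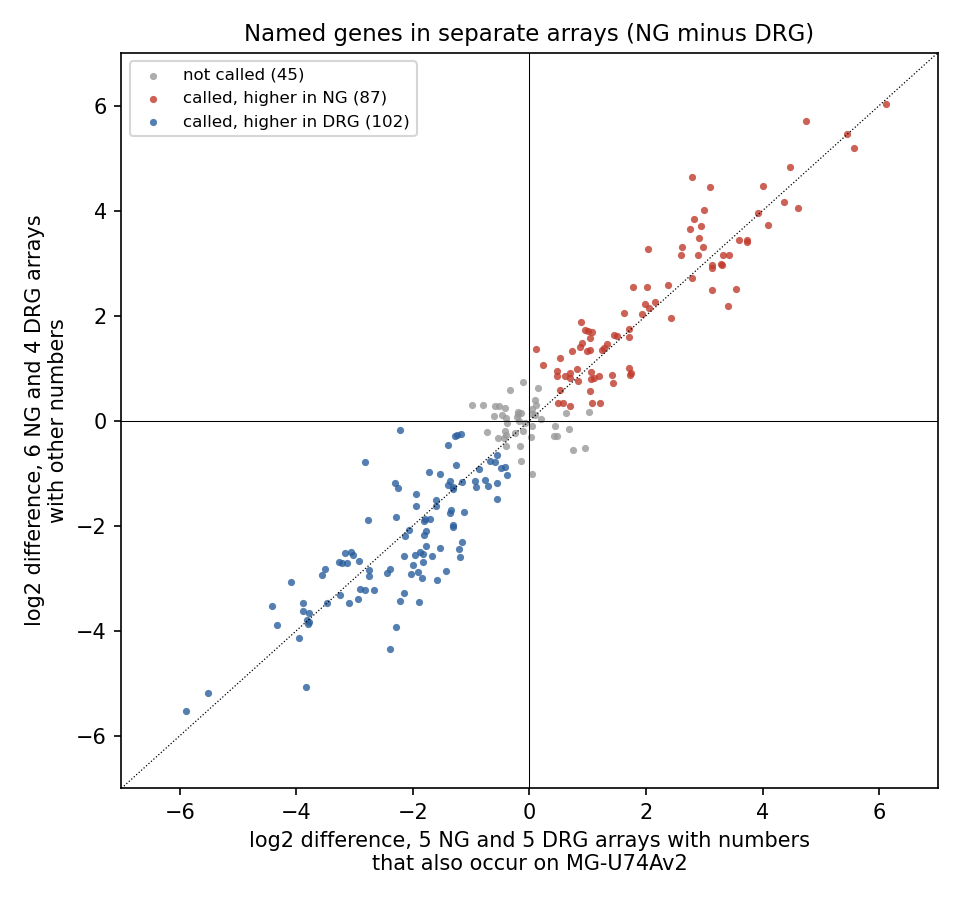
Each point is a gene named in the text; the x axis is its log2 difference (NG minus DRG) over the 10 arrays whose numbers recur on MG-U74Av2 and the y axis that over the 10 arrays with other numbers, with a dotted line of equality. Every called gene lies on the same side of 0 on both axes; Piezo1 is at 4.61 and 4.04, Tmem45b at -5.51 and -5.19.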

How the data were processed

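Gene expression was measured as array signal in 11 NG and 9 DRG samples of captured neurons on Mouse430_2. The authors deposited linear signal intensities, with 1 value for each probe set on each array, made with MAS5 per the submitters' processing notes, which name no version. MAS5 combines perfect-match and mismatch probes into 1 signal, and detection calls were not used here, so background cannot be told from a low signal. The number of arrays limits the precision. Deposited values ran from 0.107 to 9923.83, with trimmed means that differed between arrays, so each array was scaled to a 2% trimmed mean of 141.2.

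Of 45101 probe sets, 64 controls were left out, and 28107 (62.3% of all) passed the filter, namely 9 or more arrays with a signal over that array's 40th percentile. The platform annotation gave 1 gene symbol to 34958 probe sets, several to 932 and none to 9211; genes were named from the first group alone. A gene counts as not carried by MG-U74Av2 where its symbol or Entrez identifier is on no probe set of that array's annotation. The pseudocount of 7.48 is the 20th percentile of all scaled values. limma 3.58.1 under R 4.3.3 (eBayes with a mean trend, robust) was fitted on the 20 arrays with the ganglion as the factor, and two-sided p-values received Benjamini-Hochberg adjustment across all 28107 probe sets; an interaction with the class of sample number was fitted separately. Figures were drawn with matplotlib 3.10.9. The fit was tested on simulated data.

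The members and gene lists were chosen with earlier results of these data known. The rule for named genes took, per direction, the 15 uncarried genes with the largest difference among those called, not overlapping and above the median level in the higher group. It added up to 6 called genes per direction and up to 2 uncalled genes from each list, every Hox gene and peptide precursor tested, and the brightest markers of other cells; genes outside it are named as such. Alternatives covered scaling, pseudocount, filter, moderation, array weights, the Gapdh ratio, sample numbers, single arrays and choice of probe set. Promoter sequences are from RefSeq, GRCm38.p6. No protein sequence was used here.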

Additional observations from a re-analysis of the deposited data

Results flagged for a closer look

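Among the 9 DRG arrays, 11 of the 239 genes named had 1 array that stood apart from the other 8 by Dixon's criterion at 95% on the log2 scale. Chance meets it in about 1 of 20 groups, so this number of genes is near what chance gives; groups of more than 10 arrays, such as NG, were not checked. The array was the highest of its group for Grp (18.9 on DRG 008, the next at 7.35), Plin5 (16.9 on DRG 008, the next at 6.02), Tmem45b (2364 on DRG 010, the next at 1539), Nppb (173 on DRG 008, the next at 108), Grm7 (1716 on DRG 015, the next at 572), Plxnc1 (2175 on DRG 010, the next at 1732; 1731.5 before rounding) and Pde3b (731 on DRG 015, the next at 325). It was the lowest for Mab21l1 (5.79 on DRG 003, the next at 29.1), Hoxd9 (70.3 on DRG 003, the next at 121), Asic3 (467 on DRG 002, the next at 813) and Grin3a (181 on DRG 010, the next at 404). These arrays did not decide the calls, which held with each array left out in turn. In NG, where the criterion was not applied, array 010 stood highest for several DRG-higher genes. It read 1760 for Calcb (the next NG array at 647), 1471 for Trpa1 (615) and 518 for Nwd2 (153). For Tmem45b and Mctp2 the highest was NG 005, at 199 and 224. NG 010 also had the lowest score of NG on the first principal component, 23.5 against 33.2 to 68.9. Without NG 010 no named gene lost its call.

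For 12 of the genes named, each read by its brightest probe set alone, the ganglion difference varied with the class of sample number (limma interaction, adjusted over all probe sets). Dimmer probe sets of further named genes were also called in this test and are not in that count. Examples are Plxnc1 (2.88, adjusted p = 0.00284) and Cacnb4 (2.46, adjusted p = 0.0158). The interaction is the difference over the recurring numbers minus that over the others. It was -1.33 for Chst7 (3.10 against 4.44, adjusted p = 0.0271) and -1.85 for Oas1a (2.79 against 4.64, adjusted p = 0.0369), both called higher in NG within each class. Kcnh2 was at -1.0 (0.88 against 1.88, adjusted p = 0.0328) and Adcyap1 at 0.91 (-1.67 against -2.58, adjusted p = 0.045). For the neurotrophin receptor Ngfr it was 0.87 (1.21 against 0.34, adjusted p = 0.0393), for Cacng5 0.94 (-0.56 against -1.50, adjusted p = 0.0431), for Isl2 -0.98 (-1.24 against -0.27, adjusted p = 0.0254) and for Chgb -0.93 (-1.18 against -0.25, adjusted p = 0.0479). The largest of the 12 was for the TAFA gene Tafa2, -2.04 (-2.82 against -0.78, adjusted p = 0.0155). The sign of the difference changed between the classes for Slc17a6 (1.48; 0.96 against -0.52, adjusted p = 0.0112), Cacna2d2 (1.30; 0.74 against -0.56, adjusted p = 0.0168) and Chga (0.77; 0.47 against -0.30, adjusted p = 0.0263), none of which was called over all 20 arrays.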

How the results depend on the processing

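Of the 194 called genes named, 177 kept their call and direction in every alternative over all 20 arrays, 4 (Oxtr, Npy2r, Slit2 and P2rx5) lost it without some single array, and 155 were called in both classes of sample number. No called gene changed sign. The calls came from the same arrays as these alternatives, so such agreement is in part set by that choice. With the same median on every array 2210 probe sets were called higher in DRG, and with the values as deposited 4157 were called in all, 1016 of them higher in NG, and 302 uncarried genes higher in NG. The interaction was called for 187 probe sets with the same median, 185 with the Gapdh ratio as a covariate and 346 to 881 with 1 array left out; the cause was not tested. With fewer arrays, those of recurring numbers called 481 uncarried genes higher in NG, and the others called 1122 uncarried genes, 566 of them higher in DRG. NG and DRG share 7 sample numbers, whose arrays deviated together no more than others (correlations of -0.15 to 0.16, 2 of 7 over 0.1, and 1 of the 7 numbers matched best both ways), so the numbers were not taken as pairs. A fixed replicate block over these 14 arrays called 4025 probe sets (1708 higher in NG, 2317 higher in DRG) and 1104 uncarried genes (473 higher in NG), and left 12 named genes uncalled (Runx3, Pkd2l1, Grin3a, Apln, Oxtr, Npr2, Ephb1, Cfap69, Slc18a2, Plcd3, Btg2 and P2rx5); a random replicate block, with a correlation of 0.029, changed no call of a named gene. Signal over background limits genes whose lower group lies near the pseudocount: their fold differences depend on it, though their calls held with a pseudocount of 1 or 32.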

Other observations

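Further uncarried genes, chosen after their values were seen, differed without overlap. Tmie, a transmembrane protein of the mechanotransduction complex of inner ear hair cells, was at 206, 468 and 545 in NG and 21.9, 46.2 and 147 in DRG (log2 difference 2.72, SE 0.25, adjusted p = 4.76e-09), with another of its probe sets called in the same direction. Stum, the mouse relative of a fly gene for mechanical sensing, was at 1433, 2006 and 2934 in NG and 169.6, 368 and 519.9 in DRG (log2 difference 2.60, SE 0.17, adjusted p = 7.80e-12). Both ran in the direction of Piezo1 and opposite to Piezo2. Lypd1, a surface protein that binds nicotinic receptors, was at 337, 1017 and 1664 in NG and 47.5, 104 and 140.4 in DRG (log2 difference 3.11, SE 0.23, adjusted p = 8.62e-11). Its direction was that of Chrna3, Chrna5 and Chrnb4 and opposite to that of Chrna7 (-2.87). In DRG, Tmem100, a membrane protein that modulates the TRPA1 and TRPV1 channels, was at 79.7, 149 and 257 in DRG and 3.47, 10.9 and 54.5 in NG (log2 difference -3.02, SE 0.27, adjusted p = 2.84e-09), in the same direction as both channels. The sortilin-related receptor Sorcs3 was at 149, 204 and 313 in DRG and 2.10, 16.4 and 47.0 in NG (-3.21, SE 0.25), opposite to its relative Sort1.

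Probe sets of the same gene were called in opposite directions for 54 of 5965 genes with more than 1 tested. For Fbxw8, a ubiquitin ligase component, medians were 1103 in NG and 413 in DRG by 1 probe set (log2 difference 1.30, SE 0.16) and 72.8 and 148 by another (-1.11, SE 0.23). For Sulf2, which removes sulphate from heparan chains, they were 392.1 and 172 (1.21, SE 0.18) and 342 and 639.6 (-1.05, SE 0.21). For Aldh2, a mitochondrial aldehyde dehydrogenase, they were 482 and 150.5 (1.41, SE 0.17) and 132 and 329.7 (-1.23, SE 0.36). Which transcript each probe set reads was not analysed here.

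The labels used here give no sex. The noncoding RNA Xist, made from the inactive X chromosome of female cells, read 453 to 1012 on all 20 arrays, and 10 probe sets of the Y-linked genes Eif2s3y, Kdm5d, Uty and Usp9y did not exceed 40.8 on any array; 0 of them passed the filter on low values.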
